A study of Mus musculus with 2 samples.

Results

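The insulin-like growth factor (IGF) system of the adrenal gland was read through 10 genes chosen by name: the ligands Igf1 and Igf2, the receptors Igf1r and Igf2r, and the binding proteins Igfbp2, Igfbp3, Igfbp4, Igfbp5, Igfbp6 and Igfbp7. All 10 symbols matched a gene in the deposited tables, which list 55450 genes. The tables come from total RNA sequencing of adrenal glands from female B6CASTF1/J mice, an F1 hybrid whose parents are C57BL/6J and CAST/EiJ mice, at an age of 36 days. There was 1 group of 2 libraries, replicate 1 and replicate 2, each made from 300 ng of RNA, with no treatment and no second condition. The labels call them biological replicates, but they give both the same donor identifier and differ on whether the animal was the same, so the spread between them may be technical. The tables do not separate the parental copies of a gene, so the copies of imprinted members cannot be told apart.

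IGF1 and IGF2 are small secreted hormones that resemble insulin and promote cell growth and survival. Both act through the IGF1 receptor, a tyrosine kinase, while the IGF2 receptor takes up IGF2 for breakdown in lysosomes, and the binding proteins hold the ligands in blood and around cells until proteases release them. In the adrenal gland the IGFs are known as local growth factors of the steroid-producing cortex, and Igf2 is known for its high level in the fetal gland and in adrenocortical tumours.

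The sequences shown first are those at which transcripts of one member part, since the transcript results turn on them. Igf1 transcripts differ in an inserted exon of 52 bases at chr10:87915298-87915349 (mm10, plus strand) near the end of the coding region. Its presence changes the E peptide, which is cut from the IGF1 precursor, and leaves the mature hormone as it is. The inserted exon is in capitals, with 15 coding bases on each side in lower case, from the GENCODE M21 transcripts.
Igf1-203, exon kept: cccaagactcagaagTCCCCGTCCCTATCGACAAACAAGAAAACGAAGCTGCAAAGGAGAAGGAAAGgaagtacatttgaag
Igf1-202, exon skipped: cccaagactcagaaggaagtacatttgaag

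The coding region of Igf1 transcripts also opens in one of 2 alternative leader exons, which encode different starts of the signal peptide. A transcript can itself start further upstream, as Igf1-205 does at chr10:87859490. The first leader codes 63 bases at chr10:87859350-87859412 and the second codes 15 bases at chr10:87861371-87861385, on the same build and strand. Capitals mark the coding bases of the leader, and the 15 lower-case bases belong to the exon that both are joined to.
Igf1-202, first leader: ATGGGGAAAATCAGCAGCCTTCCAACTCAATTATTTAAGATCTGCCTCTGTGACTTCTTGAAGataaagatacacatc
Igf1-205, second leader: ATGACCGCACCTGCAataaagatacacatc

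Igfbp4 transcripts enter the same second exon from different first exons. The coding transcript Igfbp4-201 enters it from chr11:99041818-99041845 and the non-coding Igfbp4-203 from chr11:99043597-99043624, which is its whole first exon. A second non-coding transcript, Igfbp4-202, enters it from chr11:99044885-99044912 (mm10, plus strand). Capitals mark the last 28 bases of each first exon, and the lower-case bases are the start of the shared exon.
Igfbp4-201: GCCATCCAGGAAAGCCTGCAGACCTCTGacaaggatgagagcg
Igfbp4-203: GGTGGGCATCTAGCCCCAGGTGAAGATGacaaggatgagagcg
Igfbp4-202: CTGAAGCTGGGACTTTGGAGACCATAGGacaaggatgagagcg

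Upstream sequence is shown for Igfbp7, the member with the highest level, and for Igfbp4 and Igf2, whose transcripts start at several places. Each line holds the 100 bases before a RefSeq start (GRCm38.p6), read on the strand of the gene, with TATAAA (the TATA box) and GGGCGG (the GC box) in capitals on either strand. The window of Igfbp7 is chr5:77408046-77408145 on the minus strand and that of Igfbp4 is chr11:99041144-99041243 on the plus strand. The windows of Igf2 are chr7:142657497-142657596 and chr7:142666817-142666916 on the minus strand.
Igfbp7: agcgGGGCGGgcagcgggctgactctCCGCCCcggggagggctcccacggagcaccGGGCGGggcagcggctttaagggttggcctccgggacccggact
Igfbp4: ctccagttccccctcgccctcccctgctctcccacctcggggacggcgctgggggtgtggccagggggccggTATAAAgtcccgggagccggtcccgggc
Igf2, near start: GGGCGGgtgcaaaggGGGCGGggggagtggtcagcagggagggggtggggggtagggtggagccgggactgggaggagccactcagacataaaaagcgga
Igf2, far start: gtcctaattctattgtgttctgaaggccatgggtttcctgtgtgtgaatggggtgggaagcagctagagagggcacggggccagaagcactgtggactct

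RefSeq gave 14 promoter windows for the 10 members. In the 250 bases before the start, 2 of the 14 windows held TATAAA on either strand, those of Igfbp4 and Igfbp6, while 12.4% of 32851 windows over all genes held it. GGGCGG on either strand stood in 6 of the 14 windows and in 32.7% of all windows. The 2 motifs cannot share a base. The window of Igfbp7 held 4 matches to GGGCGG, and the near start of Igf2 held 2.

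The binding proteins, and Igfbp7 above all, made up most of the mRNA of the system, and the ligands little of it. Levels are in TPM, a read count corrected for transcript length and scaled to the same total over every entry of each table, and are given as mean ± SD over the libraries (n = 2). Igfbp7 averaged 268 ± 8.41 TPM, followed by Igf1r at 26.7 ± 0.191, Igfbp4 at 24.7 ± 0.460 and Igf2r at 23.1 ± 0.170 TPM. Igfbp5 averaged 19.015 ± 2.52, Igfbp3 18.7 ± 1.23 and Igfbp6 13.8 ± 0.884 TPM. Igf1 averaged 5.91 ± 0.615, Igf2 2.92 ± 0.665 and Igfbp2 0.845 ± 0.403 TPM. At 1 TPM or more in both libraries, 9 of the 10 members were detected, the exception being Igfbp2. Of all 21938 nuclear protein-coding genes, 11656 were detected in this sense.

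This order of levels held between the libraries for every pair of neighbours other than Igfbp5 and Igfbp3, whose values over the 2 libraries overlapped. The tables also give an interval for each TPM, whose confidence level is not stated. By those intervals Igf1r also overlapped with Igfbp4, and Igfbp4 with Igf2r. A second quantification, in tables made directly from the reads (read-derived, set against the alignment-derived tables above), kept the same top 3 and bottom 4 members in both libraries.

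**Figure D1:**
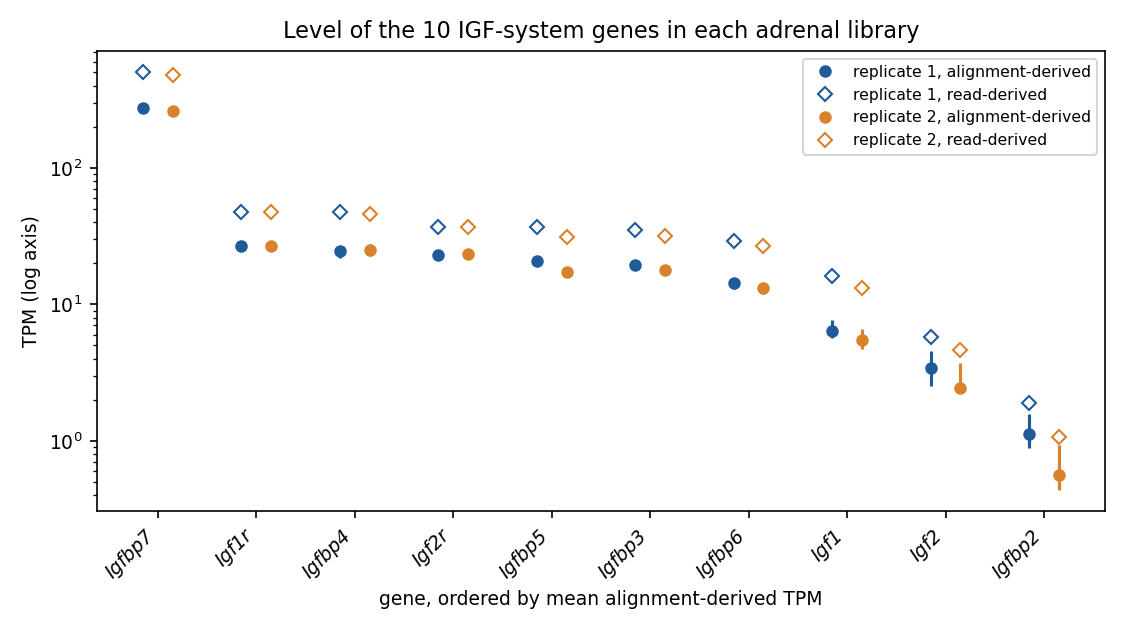
TPM on a log axis for each member, replicate 1 in blue on the left of each pair and replicate 2 in orange on the right. Filled circles are the alignment-derived gene tables with the deposited interval as a line, and open diamonds the read-derived tables. Igfbp7 stands far above the next member, and Igfbp2 lies lowest.

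The 6 binding proteins summed to 354 TPM in replicate 1 and 336 in replicate 2, and the ligands to 9.73 TPM in replicate 1 and 7.92 in replicate 2. The binding protein sum was thus 36.4 times the ligand sum in replicate 1 and 42.4 times in replicate 2. Igfbp7 alone gave 77.3% of the binding protein TPM in replicate 1 and 78.0% in replicate 2. Igfbp7 binds IGFs with low affinity, and without it the sum of the other binding proteins was 8.25 times that of the ligands in replicate 1 and 9.31 times in replicate 2. These are mRNA levels in tissue and say nothing of the hormone that reaches the gland in blood.

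The scale of TPM differed between the quantifications, and nuclear protein-coding genes held 31.2% of the alignment-derived TPM and 59.2% of the read-derived TPM in both libraries. Over 11656 nuclear protein-coding genes at 1 TPM or more, the median gene was 1.75 times higher in the read-derived table of replicate 1 and 1.74 times in that of replicate 2. Against that, Igf1 was 2.56 times higher in replicate 1 and 2.40 times in replicate 2, the largest ratio among the members. Igf2r had the smallest, at 1.60 in replicate 1 and 1.58 in replicate 2. Ratios between members differed too, and the binding protein sum was 29.9 and 34.8 times the ligand sum in the read-derived tables of replicates 1 and 2.

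Of the ligands, Igf1 was the higher. Igf1 (chr10:87858265-87937042, plus strand, all on mm10), the growth hormone-dependent IGF of postnatal life, had 6.34 TPM in replicate 1 and 5.47 in replicate 2, from 808 and 764 expected counts. Igf2 (chr7:142650766-142666816, minus strand), the imprinted IGF that dominates before birth, had 3.39 TPM in replicate 1 and 2.45 in replicate 2, from 211 and 242 expected counts. Igf1 was 1.87 times Igf2 in replicate 1 and 2.23 times in replicate 2, and 2.82 and 2.83 times in the read-derived tables. At 36 days, then, both libraries held more Igf1 than Igf2 mRNA per length in both quantifications.

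For Igf2 the TPM and the counts of the libraries went in opposite directions. Its TPM was higher in replicate 1, with a log2 ratio of replicate 1 over replicate 2 of 0.45 on TPM + 0.1. Its share of all counts was not, at 0.946 times that of replicate 2 (95% interval 0.782 to 1.14, counting error only), and with TMM scaling of the counts the log2 ratio was -0.05. The transcript tables assigned the counts to transcripts of different length in each library. In replicate 1, Igf2-207, of 376 bases, took 32.2% of the gene's TPM with 10.93 counts, and in replicate 2 it took 3.28% with 0.82 counts.

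No transcript of Igf2 led in more than 1 of the 4 tables by TPM. The leading ones were Igf2-207 in replicate 1 and Igf2-202 in replicate 2 of the alignment-derived tables, and Igf2-209 in replicate 1 and Igf2-204 in replicate 2 of the read-derived tables. Igf2-202 and Igf2-201 start 30 bases apart at the near start shown above, and together held 92.5 expected counts in replicate 1 and 93.9 in replicate 2. Between them the split went opposite ways, with 22.5 counts to Igf2-202 and 70.1 to Igf2-201 in replicate 1, and 90.5 to Igf2-202 and 3.39 to Igf2-201 in replicate 2. The other starts were less alike in the alignment-derived tables. Igf2-204 had 0 expected counts in replicate 1 and 81.1 in replicate 2, and Igf2-205 had 75.2 in replicate 1 and 47.2 in replicate 2. Igf2-203, which begins at the far start, was listed at 0 in all 4 tables. In the read-derived tables the pair at the near start held 75.6 estimated counts in replicate 1 and 91.7 in replicate 2. There Igf2-204 was not at 0 in either library, with 58.4 in replicate 1 and 119 in replicate 2. Igf2-205 held 87.6 and 44.9.

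Igf1 was read mostly through 1 long transcript, and the share given to the others depended on the unit. Igf1-202, of 7052 bases, held 79.2% of the gene's expected counts in replicate 1 and 83.1% in replicate 2. Because TPM divides by length, it held only 40.2% of the gene's TPM in replicate 1 and 43.1% in replicate 2. In the read-derived tables the highest TPM share went to the shorter Igf1-205, of 798 bases, at 39.5% in replicate 1 and 42.5% in replicate 2, from 8.22% and 8.12% of the counts.

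Transcripts with the 52-base exon held 42.8% of Igf1 TPM in replicate 1 and 37.3% in replicate 2. Counted among them was Igf1-201, which ends past that exon, at chr10:87915894, and held 1.73% and 1.10%. For the whole class the read-derived tables gave 31.6% in replicate 1 and 25.0% in replicate 2, so skipping of the exon was the more common form in all 4 tables. By counts the class held less, at 17.1% and 12.7% in the alignment-derived tables of replicates 1 and 2. The read-derived tables gave it 6.72% and 5.72% of the counts. The leader exons came out in opposite order. The first leader held 74.6% of the TPM in replicate 1 and 66.0% in replicate 2 by the alignment-derived tables, against 30.3% and 34.9% by the read-derived ones. By counts the first leader led in all 4 tables, with 86.0% to 94.4% of the gene's counts.

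Each receptor had nearly the same level in both libraries. Igf1r (chr7:67952827-68233668, plus strand) had 26.8 TPM in replicate 1 and 26.6 in replicate 2, from 9872 and 10999 expected counts. Igf2r (chr17:12682406-12769664, minus strand), which also sorts lysosomal enzymes that carry mannose 6-phosphate, had 23.0 TPM in replicate 1 and 23.2 in replicate 2, from 7165 and 7879 expected counts. The log2 ratios were 0.01 for Igf1r and -0.01 for Igf2r. Igf2r stood at 0.857 times Igf1r in replicate 1 and 0.875 times in replicate 2.

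The coding transcript Igf1r-201, of 11409 bases, held 88.0% of Igf1r TPM in replicate 1 and 93.4% in replicate 2. The rest lay in retained-intron transcripts, at 12.0% and 6.55% of the TPM in replicates 1 and 2 but 2.45% and 1.30% of the counts. Of the 5 listed, Igf1r-206 was at 0 in both libraries. In the read-derived tables Igf1r-201 held 81.8% of the TPM in replicate 1 and 84.1% in replicate 2, and Igf1r-206 held 9.43% and 11.6%. Igf2r-201 held 98.2% of Igf2r TPM in replicate 1 and 99.7% in replicate 2. Igf2r overlaps Airn, an antisense RNA known in mouse to silence the paternal Igf2r copy, over 28354 bases, and Airn had 1.93 TPM in replicate 1 and 1.91 in replicate 2. Whether the counting used strand is not given in the sources used here, so reads of the overlapping pairs Igf2r and Airn, Igf2 and Igf2os, Igf1 and Igf1os, and Igfbp7 and Polr2b cannot be told apart with certainty. Gm49394, a protein-coding gene that shares the strand and span of Igf2, was listed at 0.

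Igfbp7 (chr5:77349240-77408041, minus strand), a secreted protein of blood vessel walls and matrix, had 274 TPM in replicate 1 and 262 in replicate 2. It ranked 138 among 21938 nuclear protein-coding genes by mean TPM, within the top 0.629%. No other member stood above rank 2397, that of Igf1r. Almost all of its TPM lay in Igfbp7-201, at 99.8% in both libraries.

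Igfbp4 (chr11:99041244-99054392, plus strand), which mostly restrains IGF action until it is cleaved, had 24.4 TPM in replicate 1 and 25.0 in replicate 2, from 1803 and 2024 expected counts. Its coding transcript Igfbp4-201 held 82.7% of the counts in replicate 1 and 84.3% in replicate 2, but 45.5% and 47.3% of the TPM. Much of the remaining TPM went to short non-coding transcripts, and which of them received it depended on the table. Igfbp4-203, with the first exon at 99043597, took 47.9% of the TPM in replicate 1 and 38.7% in replicate 2 of the alignment-derived tables and was listed at 0 in both read-derived tables. Igfbp4-202 took 0 and 2.44% in the alignment-derived tables of replicates 1 and 2, and 38.9% and 46.4% in the read-derived ones. The non-coding transcripts as a class were closer between tables, at 47.9% and 41.1% of the TPM in the alignment-derived tables and 47.6% and 57.7% in the read-derived tables of replicates 1 and 2. The 3 joins shown above part at the first exon and run together from the shared exon on.

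**Figure D2:**
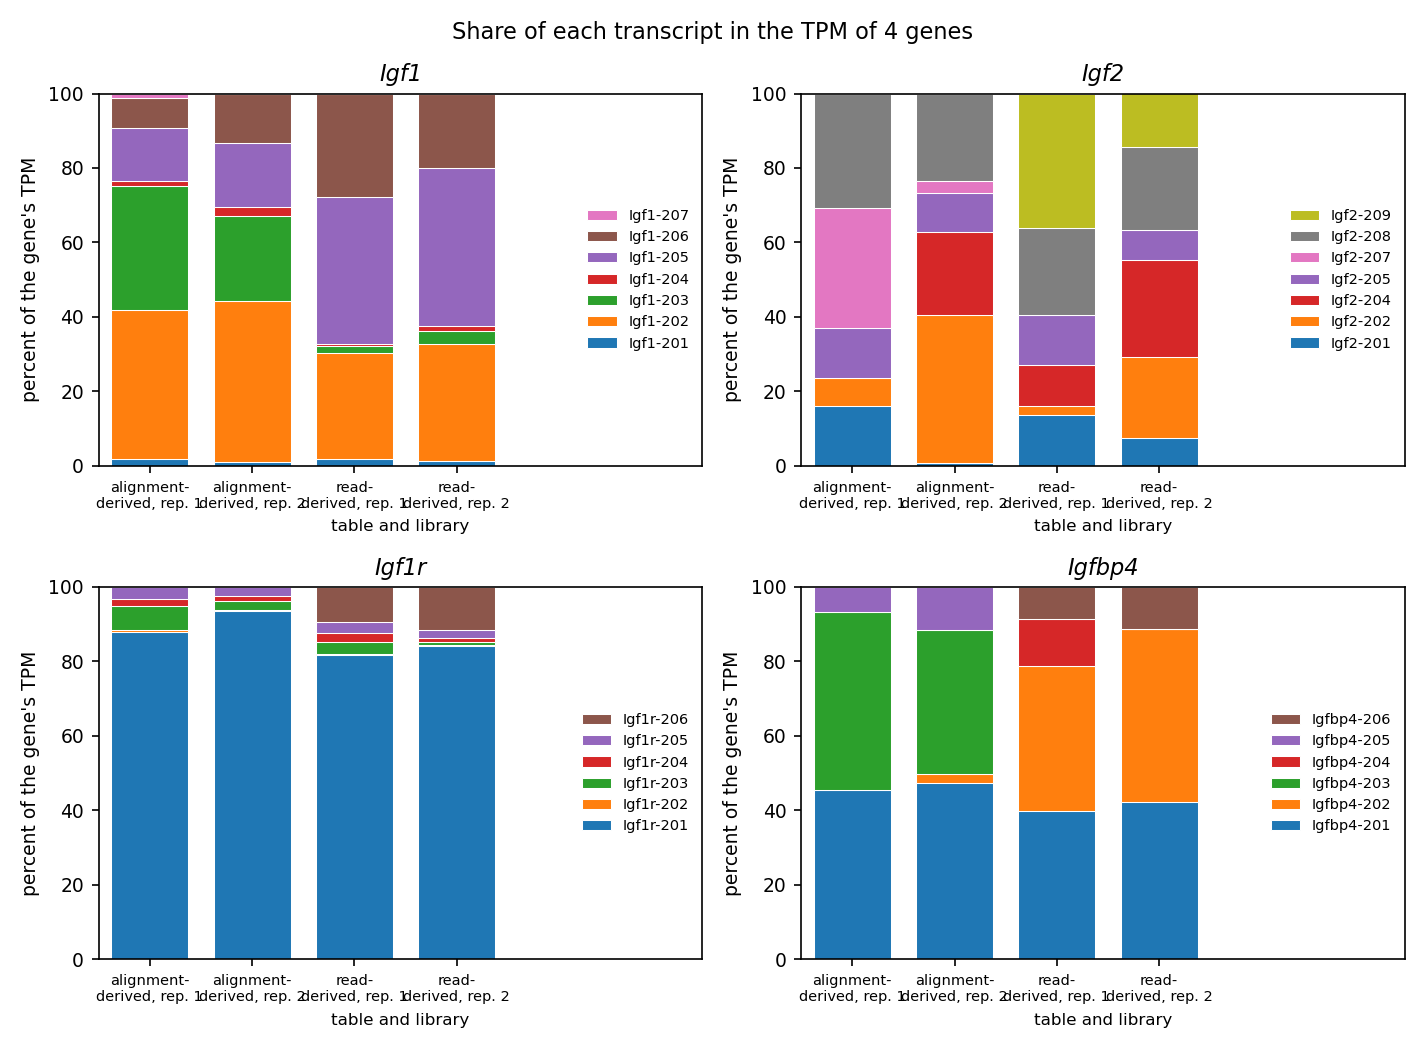
Share of each transcript in its gene's TPM, in percent, for Igf1, Igf2, Igf1r and Igfbp4. The bars are replicates 1 and 2 of the alignment-derived tables and then of the read-derived tables. Igf1r-201 fills most of each Igf1r bar, while the leading colour of Igf2 differs in all 4 bars and Igfbp4-203 is present only in the alignment-derived bars.

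Igfbp5 (chr1:72857932-72874884, minus strand), a binding protein that also attaches to extracellular matrix, had 20.8 TPM in replicate 1 and 17.2 in replicate 2, from 4432 and 3937 expected counts. Its share of all counts in replicate 1 was 1.22 times that in replicate 2 (95% interval 1.17 to 1.27), a difference larger than counting error. The intervals of Igf1, 1.04 to 1.27, and Igfbp7, 1.03 to 1.09, excluded equality too, as did those of Igfbp3 and Igfbp2 given below. In bulk tissue, fewer cells of a type and less RNA per cell cannot be told apart. Some marker lists of other cells also differed. By TPM 7 of 8 capsule and fibroblast markers were higher in replicate 1, and none was at 0. They summed to 217 TPM in replicate 1 and 192 in replicate 2. Of these sums Col3a1 alone gave 66.75 TPM in replicate 1 and 53.2 in replicate 2. By count share Gli1, at 0.972 times replicate 2, and Rspo3, at 0.879 times, were lower in replicate 1, and in the read-derived tables Pdgfra, Gli1 and Rspo3 were lower. All 5 medulla markers were higher in replicate 1 by TPM, by counts and in the read-derived tables, summing to 1479.6 TPM in replicate 1 and 1109.7 in replicate 2. The median log2 ratio was 0.45 for medulla and 0.13 for capsule and fibroblast markers. It was -0.013 for cortex, -0.005 for endothelium, 0.010 for pericyte and smooth muscle, -0.003 for adipocyte and 0.07 for macrophage markers. Of the 9 marker lists the widest ratios were in skeletal muscle markers, which summed to 245 TPM in replicate 1 and 1.76 in replicate 2, and liver markers, at 32.6 and 3.68 TPM. Their part in the Igfbp5 result was not tested.

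Igfbp3 (chr11:7206086-7213923, minus strand), the main carrier of IGFs in blood, had 19.5 TPM in replicate 1 and 17.8 in replicate 2. The ratio of its count shares was 1.11 (95% interval 1.04 to 1.19). Igfbp6 (chr15:102144362-102149511, plus strand), which prefers IGF2, had 14.4 TPM in replicate 1 and 13.2 in replicate 2, with a count share ratio of 1.11 whose interval, 0.979 to 1.25, included equality. Each of Igfbp3, Igfbp5 and Igfbp6 was read almost wholly through 1 coding transcript, with 98.1% or more of the TPM in each library of the alignment-derived tables.

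Igfbp2 (chr1:72824503-72852474, plus strand), a binding protein known for high levels in the fetus, had 1.13 TPM in replicate 1 and 0.560 in replicate 2, from 47 and 26 expected counts. Its count share ratio of 1.96 had an interval of 1.19 to 3.30. Igfbp2 lies next to Igfbp5 on chromosome 1 in the opposite orientation and 5458 bases away, and Igfbp5 was by far the higher of the pair. All 6 liver markers were higher in replicate 1, with Alb at 22.7 TPM in replicate 1 and 1.34 in replicate 2 and none at 0 in both libraries. Of the 6, Alb alone passed the minimum of 200 summed counts. The count share ratio of Apoc3, 1.34, had an interval of 0.832 to 2.17, which included equality. All 6 skeletal muscle markers were higher in replicate 1 too, and the part of either list in the Igfbp2 result was not tested.

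Between the libraries, none of the 9 members with 200 or more summed counts was 2-fold or more apart (0 of 9), while 111 of 12275 genes were, 0.904%. At 1.5-fold the count was also 0 of 9, with 439 genes, 3.58%, past that fold. The median absolute log2 ratio was 0.13 over the members and 0.12 over all 12275 genes. The tenth member, Igfbp2, lay under the count minimum and had a log2 ratio of 0.90. Its TPM, 1.13 in replicate 1 and 0.560 in replicate 2, was slightly more than 2-fold apart before 0.1 was added. With DESeq2 size factors its log2 ratio was 0.99. By TPM 7 of the 9 were higher in replicate 1 and 2 were lower, Igf2r and Igfbp4. With counts scaled by TMM 6 were higher and 3 lower, namely Igf1r, Igf2 and Igfbp4. The median log2 ratio of all genes was -0.04 by TPM.

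**Figure D3:**
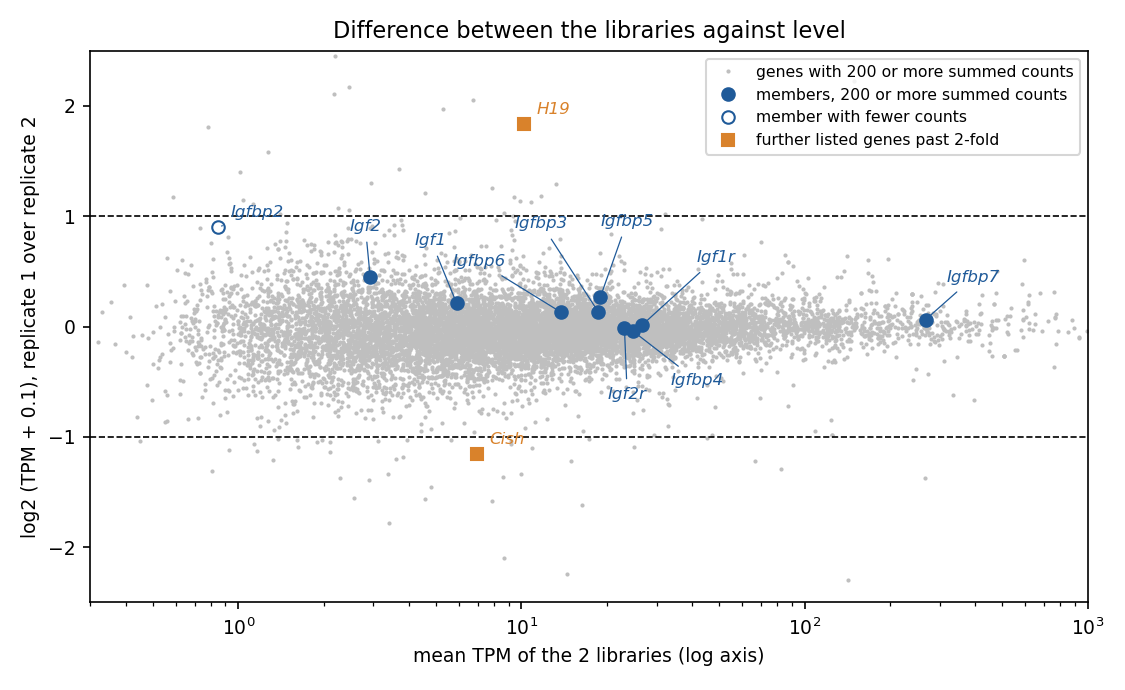
The log2 ratio of TPM + 0.1, replicate 1 over replicate 2, against mean TPM on a log axis. Grey points are genes with 200 or more summed counts, 95 of which lie outside the axes. Blue points are the members, which all lie inside the dashed lines at a 2-fold difference in TPM + 0.1. The open one, Igfbp2, has fewer than 200 summed counts and lies inside only with the 0.1 added. Orange squares are H19 above and Cish below those lines.

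Further genes of the system came from a list of 52, all of which matched. At 1 TPM or more in both libraries stood 37 of them, beside 12741 of all 55450 genes. Of the 36 listed genes with 200 or more summed counts, 2 were 2-fold or more apart, H19 and Cish, beside the same 0.904% over all genes.

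Among ligands and neighbours, H19 and Airn were detected, and the insulin genes Ins1 and Ins2 were listed at 0 with no count in either library, which allows up to 3 counts each. H19, the imprinted non-coding RNA that lies beside Igf2 and shares its enhancers, had 16.0 TPM in replicate 1 and 4.41 in replicate 2, from 1140 and 337 expected counts. The ratio of its count shares was 3.67 (95% interval 3.25 to 4.16). Nctc1, another non-coding RNA of that locus known from skeletal muscle, had 26 counts in replicate 1 and 1 count in replicate 2. Skeletal muscle markers differed in the same direction, and all 6 were higher in replicate 1, with a summed level of 245 TPM in replicate 1 and 1.76 in replicate 2 and Myh4 listed at 0 TPM in replicate 2. Their part in the H19 result was not tested.

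By mean TPM, receptors and their adaptors were led by Insr, the insulin receptor, at 38.7 TPM in replicate 1 and 40.6 in replicate 2, and by Grb10, an adaptor that restrains insulin and IGF signalling, at 31.8 and 26.4 TPM. In replicate 2 the adaptor Shc1, at 28.5 TPM, stood above Grb10. Insr was 1.44 times Igf1r in replicate 1 and 1.53 times in replicate 2. In this list 7 of 9 genes were detected, Insrr and Irs4 being the others. Irs2, a docking protein of both receptors, had 7.86 TPM in replicate 1 and 14.4 in replicate 2, short of 2-fold with a log2 ratio of -0.87.

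Relatives of the binding proteins were led by Ccn2, a matrix protein with an IGF-binding domain, at 23.3 TPM in replicate 1 and 16.2 in replicate 2, and by Htra1, a secreted protease with such a domain, at 11.1 and 11.7 TPM. Of 8 genes 5 were detected. Igfbp1, a liver-made binding protein 3540 bases from Igfbp3, had 2 counts in replicate 1 and 0 in replicate 2. Igfals, which joins IGF and Igfbp3 into the large complex of serum, had 0.690 TPM in replicate 1 and 1.32 in replicate 2.

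A list of 8 genes of proteases, their inhibitors and Tmem219, a cell-surface receptor of Igfbp3, held 4 detected genes, Ctsd, Htra3, Tmem219 and Adamts1. Ctsd, a lysosomal protease that can cleave binding proteins, led at 351 TPM in replicate 1 and 341 in replicate 2, with Htra3 next at 12.1 and 10.6 TPM. Pappa, the secreted protease that cleaves Igfbp4, stood at 0.0900 TPM in replicate 1 and 0.10 in replicate 2, and its relative Pappa2 and the inhibitors Stc1 and Stc2 were also under 1 TPM. Tmem219 had 8.79 TPM in replicate 1 and 9.83 in replicate 2.

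All 6 genes of the growth hormone axis were detected. Stat5b, the signal transducer of the growth hormone receptor, had 31.0 TPM in replicate 1 and 33.7 in replicate 2, and Ghr, the receptor itself, 31.1 and 28.1 TPM. Cish, a feedback inhibitor induced by STAT5, had 4.27 TPM in replicate 1 and 9.66 in replicate 2, with a count share ratio of 0.436 (95% interval 0.375 to 0.506). Socs2, another such inhibitor, was slightly higher in replicate 1, at 8.47 TPM in replicate 1 and 7.68 in replicate 2. All 12 signalling genes were detected, led by the kinases Akt1 at 117 TPM in replicate 1 and 115 in replicate 2 and Akt2 at 60.4 and 73.9 TPM, and none was 2-fold apart.

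**Figure D4:**
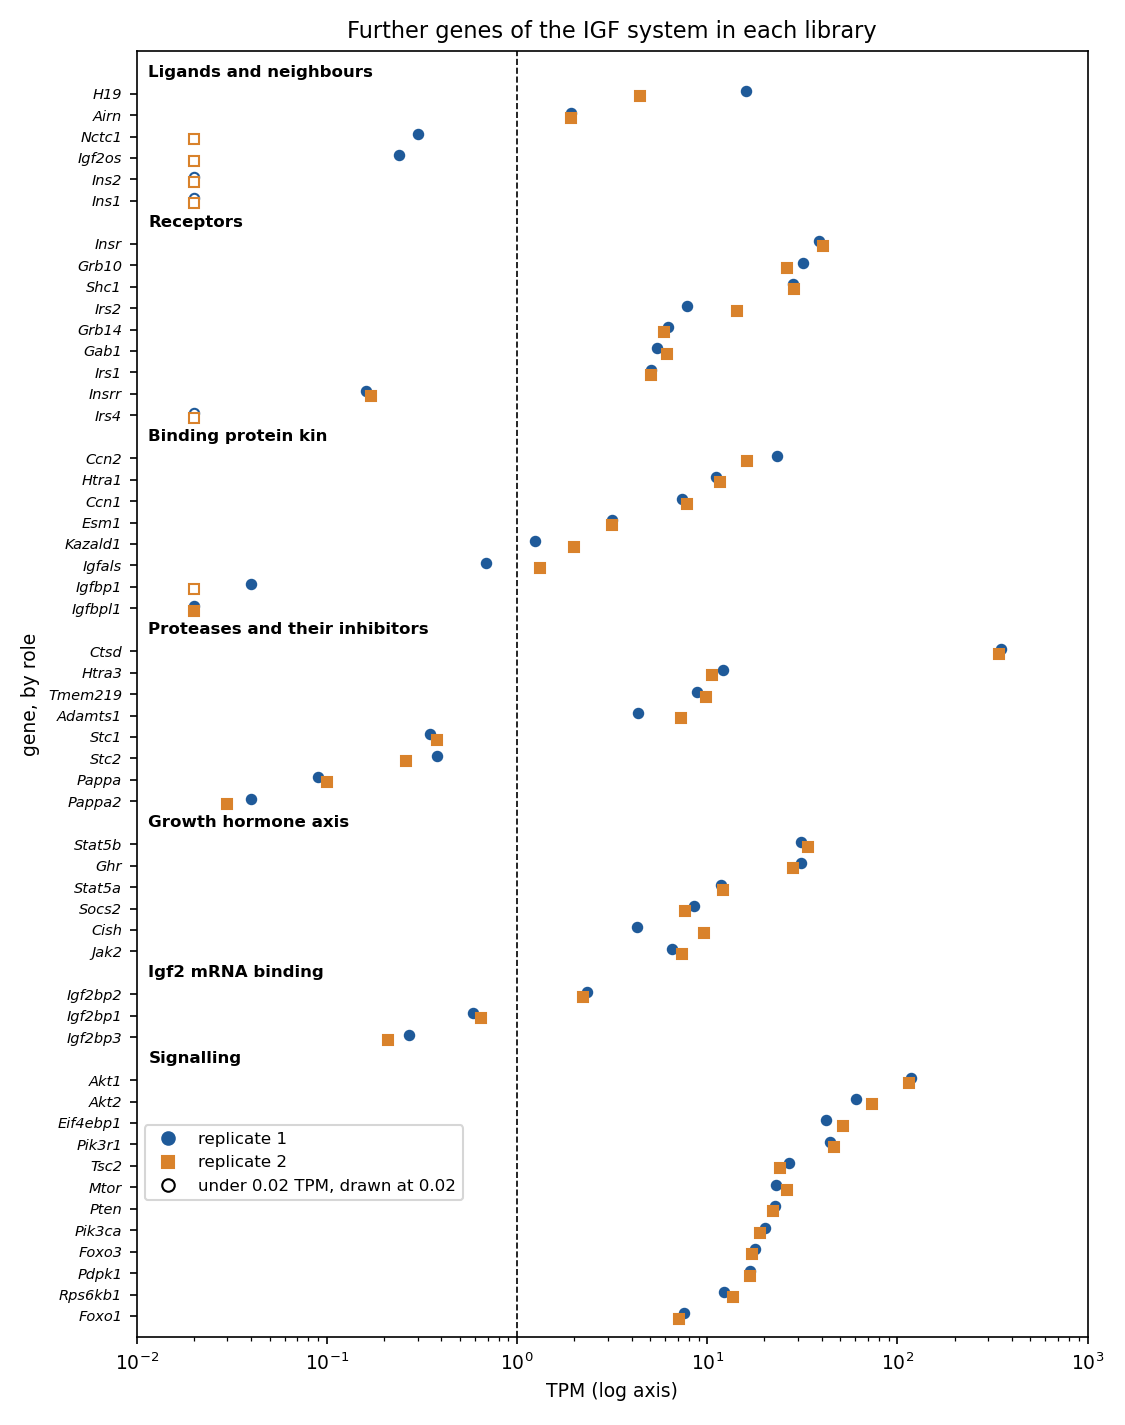
TPM on a log axis for the 52 further genes, grouped by role, with replicate 1 as blue circles and replicate 2 as orange squares. Open symbols are values under 0.02 TPM, and the dashed line is 1 TPM; all growth hormone axis and signalling genes lie to the right of it, and H19 and Cish have the widest gaps among genes past 200 summed counts.

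For the series as a whole, the gene tables held 35684781 expected counts in replicate 1 and 38701795 in replicate 2. Cortex markers summed to 16266 TPM in replicate 1 and 16733 in replicate 2, and all 6 were detected, as the tissue label says. Adipocyte markers were also high, at 1759.6 TPM in replicate 1 and 1730.6 in replicate 2.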

How the data were processed

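Total RNA libraries of 1 group were analysed. Per the file headers, the authors deposited, for each library, a gene table and a transcript table with an expected count and TPM, and a second transcript table, derived from the reads directly, with an estimated count and TPM. The bounds of each deposited TPM interval were read as a signal. Per the labels, the build is mm10, and the deposited annotation is GENCODE M21. The aligner, its version, filters and any use of strand are not stated in the sources used here. These members and all gene and marker lists were chosen with earlier results of these data known. All 10 members were named, with the 2 highest further genes of each role and any on which a result turned.

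Log2 ratios are of TPM + 0.1, replicate 1 over replicate 2, over genes with 200 or more summed counts. Count share ratios have exact 95% Clopper-Pearson intervals. Intervals cover counting error only, and a count of 0 allows 3 counts. With 1 group no test between groups was made. TMM factors came from edgeR 4.0.16 and size factors from DESeq2 1.42.0 in R 4.3.3, on expected counts rounded to whole numbers. The ratio step was tested on simulated gene counts without transcript lengths, so that test did not reach the assignment of reads to transcripts. Tables were handled in Python 3.11.15 with pandas 2.3.3, numpy 2.4.6 and scipy 1.17.1, and figures with matplotlib 3.10.9. Promoters are from RefSeq, and 2 Igf2 windows that lie in exons of other transcripts are not shown.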

Additional observations from a re-analysis of the deposited data

How the results depend on the processing

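No paired analysis was possible because the study has 1 group. The count of members detected lay between 9 and 10 without either replicate, was 10 at 0.5 TPM and in the read-derived tables, and 8 at 5 TPM. Of the further genes 37 were detected, against 39 at 0.5 TPM and in the read-derived tables and 30 at 5 TPM. The count of members 2-fold apart was 0 under each of the 7 alternatives run, all of which added a constant before the ratio. Igfbp2 came closest, at a log2 ratio of 0.99 with DESeq2 size factors. The count of genes 2-fold apart over the whole table was 439 at 1.5-fold, 299 with a minimum of 50 summed counts, 1919 with no minimum and 73 on TPM + 1, against 106 with TMM, 107 with DESeq2 size factors and 118 in the read-derived tables. The mean ratio of binding proteins to ligands was 39.4 in the alignment-derived and 32.3 in the read-derived tables, and lay between 36.4 and 42.4 without either replicate. The mean ratio of Igf2r to Igf1r was 0.866 and 0.777 in those tables, and lay between 0.857 and 0.875 without either replicate. By TPM, the same transcript led in both libraries for 8 members in either quantification and in all 4 tables for 7, and by counts, an alternative chosen after seeing the data, for 9. TMM and DESeq2 scaling of counts moved the log2 ratios of Igf2, to -0.05 and -0.06, and of Igfbp7, to 0.11 and 0.10. Scaling to protein-coding genes changes the unit of every level, so it moved the levels of all 10 members by construction. The read-derived tables, whose TPM scale differs as given above, also moved all 10. Read-derived shares of the leading transcript moved for 6 by more than 1 SD over the libraries. That measure passes wide changes where the libraries differ: the mean share of Igf2-207 was 17.8% in the alignment-derived tables and 0 in the read-derived ones. Igfbp2 rested on 47 and 26 counts, and 2 libraries of 1 group limit every difference to a description.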

Other observations

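The mRNAs of the 3 proteins listed as binding Igf2 mRNA stood at 2.32 TPM or less in both libraries of the alignment-derived tables. Igf2bp2, the family member that stays on in many adult tissues, had 2.32 TPM in replicate 1 and 2.23 in replicate 2. Igf2bp1, known from the fetus, had 0.590 TPM in replicate 1 and 0.650 in replicate 2, and Igf2bp3 had 0.270 and 0.210 TPM. Of the 3, Igf2bp2 alone was at 1 TPM or more in both libraries of the alignment-derived tables. In the read-derived tables Igf2bp1 passed that level too, at 2.40 TPM in replicate 1 and 2.20 in replicate 2. Igf2bp2 had 4.62 and 4.99 TPM there.

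Adamts1, a secreted protease, had 4.30 TPM in replicate 1 and 7.24 in replicate 2, a log2 ratio of -0.74. With Irs2, Cish and H19 it was among the 4 of 36 further genes with 200 or more summed counts that were past 1.5-fold, beside 3.58% of all 12275 genes, and was chosen for mention after its values were seen.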
